A study of Mus musculus with 4 samples.

Results

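The 5 kainate receptor subunit genes Grik1 to Grik5 and the 2 genes of their auxiliary subunits, Neto1 and Neto2, were followed in hippocampal tissue of mice that had undergone global cerebral ischemia. The members were taken by gene symbol, and all 7 were found among the 22609 genes of the count tables. The animals were ovariectomized C57BL/6 mice of the FLOXED genotype or of PELP1 FBKO, a forebrain knockout of the estrogen receptor co-regulator PELP1. Mice of both genotypes carried estradiol (E2) mini pumps, were subjected to this ischemia (GCI) and were sampled at 24 h of reperfusion, so that no group without ischemia, without estradiol or with intact ovaries was analysed here. Each genotype had 2 RNA-seq libraries of 50-base single reads. The age of the mice, the driver of the forebrain deletion and any pooling of animals are not given in the sources used here, and since nothing says that the libraries came from separate animals, the p-values below cover the spread between these libraries alone, which may be technical.

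Kainate receptors are one of the ionotropic glutamate receptor classes, beside the AMPA and NMDA receptors. The proteins of Grik1, Grik2 and Grik3 bind kainate with low affinity and can form channels by themselves, whereas those of Grik4 and Grik5 bind it with high affinity and form channels only together with one of the former. Neto1 and Neto2 are transmembrane proteins that join the receptor and slow its kinetics. In the hippocampus these receptors are best known at the mossy fiber synapse, where axons of dentate granule cells contact CA3 pyramidal cells, and on interneurons, and kainate itself is a classic excitotoxin.

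The 5 Grik transcripts are related but distinct in sequence, as their pore-loop coding stretches show. The stretches below are 60 bases of the coding strand from GENCODE vM21 transcripts (GRCm38), 5′ to 3′, and are shown because they hold both the family likeness and the Q/R site. The capitals mark the glutamine codon of that site, which the RNA editing enzyme ADARB1 can recode to arginine in Grik1 and Grik2.
Grik1: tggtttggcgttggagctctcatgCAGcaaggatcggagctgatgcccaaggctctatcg
Grik2: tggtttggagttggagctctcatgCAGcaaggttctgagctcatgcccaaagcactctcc
Grik3: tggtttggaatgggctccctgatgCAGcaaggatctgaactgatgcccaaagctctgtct
Grik4: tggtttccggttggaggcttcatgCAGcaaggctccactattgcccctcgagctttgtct
Grik5: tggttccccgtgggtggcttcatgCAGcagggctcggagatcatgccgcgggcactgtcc
The codon was CAG in all 5 reference transcripts, and read counts per gene carry no information on its editing. Grik1 and Grik2 were identical at 52 of the 60 bases (86.7%). Grik4 matched the low-affinity subunits at between 60.0% and 61.7% of bases, and Grik5 matched them at between 63.3% and 70.0%. Between Grik4 and Grik5 the identity was 70.0%. Over the longest transcripts of the 7 genes, 0 windows of 50 bases, the read length, were shared between members, so a read from these transcripts with no mismatch could not belong to 2 of them. Windows shared with a gene outside the family were 0 for Grik1, Grik5 and Neto2, 60 of 9378 for Grik2, 41 of 8924 for Grik3, 20 of 5838 for Grik4 and 171 of 8303 for Neto1. The span of each member overlapped 0 other genes of the count tables in that annotation.

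The libraries held between 17524594 and 22447658 reads assigned to genes, and the members between 299 reads (Grik1 in FLOXED 1) and 5254 reads (Grik5 in FLOXED 2). FLOXED 1 had the fewest gene reads and the largest share of non-unique alignments, 47.7% against 38.5% to 41.5% in the other libraries. Pelp1, the targeted gene, was at 26.7 and 26.3 CPM for FLOXED (CPM being reads relative to the TMM-scaled library size) against 18 and 17.3 for the knockout, lower in both of its libraries (log2 fold change -0.59, SE 0.149, edgeR quasi-likelihood, adjusted p = 0.130). In the hippocampus list all 6 markers were detected, and the CA1 pyramidal cell list summed to 746 and 890 CPM for FLOXED against 582 and 491 for PELP1 FBKO.

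None of the 7 genes passed the adjusted p threshold of 0.05 in edgeR's quasi-likelihood test over 14978 genes, in which 0 genes (0%) passed. DESeq2 called 0 of the 7 against 3.04% of all genes, and edgeR's exact test 0 of the 7 against 5.07%. With limma-voom 0 of the 7 and 0% of all genes were called, so that count says nothing particular about the members. Log2 fold changes, always PELP1 FBKO minus FLOXED, were positive for 5 members and negative for 2, with a median of 0.15 against 0 over all genes tested. The libraries of the genotypes did not overlap in 4 of the 7 genes, against 48.4% of all genes tested. Of these, 3 were higher in PELP1 FBKO (25.4% of all genes) and 1 was lower (23% of all genes). At an unadjusted p under 0.05 there was 1 member, Grik3, against 15.6% of all genes. These shares are near the background, and in bulk tissue fewer cells of a type and less RNA per cell cannot be told apart.

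**Figure D1:**
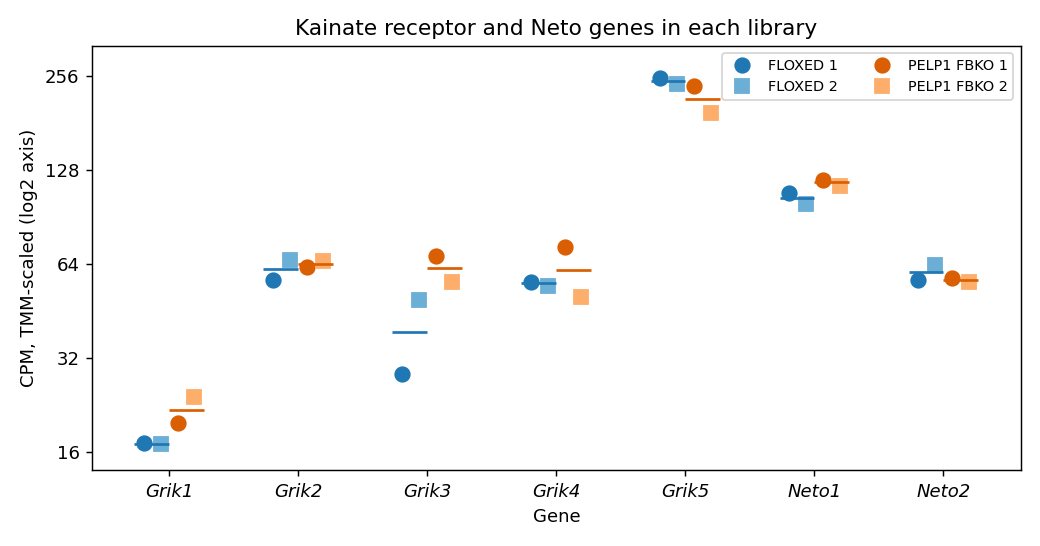
TMM-scaled CPM of each gene (log2 axis) in the 4 libraries, with symbols for libraries and horizontal bars for the mean of each genotype. Grik5 lies highest, between 195 and 252 CPM, and the FLOXED symbols of Grik3 lie farthest apart, at 28.4 and 49.2 CPM.

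Grik3, a low-affinity subunit gene, had the widest difference between genotypes among the members and also the widest spread within one. It was at 28.4 and 49.2 CPM for FLOXED 1 and FLOXED 2, against 68.1 and 56.3 for PELP1 FBKO 1 and PELP1 FBKO 2. Both knockout libraries lay above both FLOXED libraries, but FLOXED 1 stood further below FLOXED 2 than FLOXED 2 stood below PELP1 FBKO 2. For FLOXED the mean was 38.8 ± 14.7 CPM and for PELP1 FBKO it was 62.2 ± 8.32 CPM (SD, n = 2 each). The log2 fold change was 0.68 (SE 0.243, 95% interval 0.12 to 1.24), with an adjusted p of 0.242 by edgeR's quasi-likelihood test. Between the FLOXED libraries the log2 difference was 0.79, larger than the genotype log2 fold change and than the same gap in 95.2% of genes tested, whereas the knockout libraries differed by 1.21-fold. Without FLOXED 1 the log2 fold change was 0.34 (adjusted p = 0.526). It was 1.12 without FLOXED 2 and 0.81 without PELP1 FBKO 2, where Grik3 passed the threshold of the edgeR test (adjusted p = 0.0254 and 0.0315), and 0.52 without PELP1 FBKO 1. In the fits where Grik3 passed, 3.49% of all genes passed without FLOXED 2 and 3.92% without PELP1 FBKO 2. Over all alternatives the edgeR, DESeq2 and limma adjusted p ranged from 0.0254 to 0.526. FLOXED 1 was lowest and PELP1 FBKO 1 highest, as in Grik3, in the summed CPM of several marker lists with none at 0 and 0 past the edgeR threshold. These lists were picked after their sums were seen, and other lists did not follow this order. Oligodendrocyte markers, for 1, summed to 2900 and 3700 CPM for FLOXED 1 and FLOXED 2, against 5800 and 6220 for PELP1 FBKO 1 and PELP1 FBKO 2. Within the dentate list below, 5 genes had a positive and 3 a negative log2 fold change. The sums for FLOXED 1, FLOXED 2, PELP1 FBKO 1 and PELP1 FBKO 2 were 274, 283, 379 and 300 for the 8 dentate granule cell markers and 105, 151, 196 and 184 for the 6 endothelial markers. They were 275, 310, 371 and 369 for the 6 oligodendrocyte precursor markers and 81.1, 123, 150 and 120 for the 4 neocortex genes. FLOXED 1 was also the library with the largest share of non-unique alignments, 47.7%. The part of these in the Grik3 values was not tested.

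Grik1, the low-affinity subunit gene known from interneurons, was the least abundant member in reads. Its level was 17.1 and 17 CPM for FLOXED 1 and FLOXED 2, against 19.8 and 24 for PELP1 FBKO 1 and PELP1 FBKO 2. The FLOXED libraries nearly coincided, both knockout libraries lay above them, and the knockout libraries differed by 1.21-fold. The log2 fold change was 0.36 (SE 0.167, 95% interval -0.02 to 0.75, edgeR adjusted p = 0.345), and it was 0.22 without PELP1 FBKO 2. Interneuron markers lay on the same side. The 12 markers summed to 1350 CPM in each FLOXED library against 1730 and 1790 CPM in the knockout libraries, 11 of 12 had a positive log2 fold change, and 9 were higher without overlap, against 25.4% of all genes. None was at 0, 0 passed the edgeR threshold, and 8 were higher at an unadjusted p under 0.05, against 10.1% of all genes. DESeq2 called 3 of the 12, against 3.04% of all genes. The part of these markers in the Grik1 difference was not tested.

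Grik2, which encodes the low-affinity subunit of mossy fiber synapses, showed no detectable difference between genotypes. It was at 57.1 and 66.2 CPM for FLOXED 1 and FLOXED 2, against 62.7 and 65.3 for PELP1 FBKO 1 and PELP1 FBKO 2, with the knockout values inside the FLOXED range. The log2 fold change was 0.05 (SE 0.134, edgeR adjusted p = 0.889), and its 95% interval, from 0.837-fold to 1.29-fold, still holds modest differences in either direction. The sign turned to -0.05 without FLOXED 1 and to -0.07 with offsets for transcript length and GC content.

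Grik4, the high-affinity subunit gene typical of CA3 and dentate neurons, varied most within the knockout. It was at 56.3 and 54.6 CPM for FLOXED 1 and FLOXED 2, against 72.6 and 50.4 for PELP1 FBKO 1 and PELP1 FBKO 2. The knockout libraries lay on both sides of the FLOXED pair and differed from each other by 1.44-fold, a wider gap than in 88.5% of genes tested. The log2 fold change of 0.15 (SE 0.180, edgeR adjusted p = 0.735) became 0.39 without PELP1 FBKO 2 and -0.16 without PELP1 FBKO 1, so its direction rested on which knockout library was kept. Markers of CA2 and CA3 pyramidal cells, 8 genes with none at 0, summed to 546, 498, 605 and 525 CPM in the same order of libraries, also highest in PELP1 FBKO 1. Of these 5 had a positive and 3 a negative log2 fold change. The dentate granule cell markers, given beside Grik3, were also highest in PELP1 FBKO 1 in sum, but again 5 were positive and 3 negative, among them Prox1 (0.93) and Plk5 (-0.75), which were chosen after their values were seen. In these lists 0 genes passed the edgeR threshold. DESeq2 called 0 of the former and 2 of the latter, against 3.04% of all genes. The part of these markers in the Grik4 values was not tested.

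Grik5, the other high-affinity subunit gene, was the most abundant member in every library. It stood at 252 and 242 CPM for FLOXED 1 and FLOXED 2, against 238 and 195 for PELP1 FBKO 1 and PELP1 FBKO 2. The knockout libraries were the lower pair, but PELP1 FBKO 1 was only just below FLOXED 2, and most of the difference came from PELP1 FBKO 2. The log2 fold change was -0.19 (SE 0.147, 95% interval -0.53 to 0.15, edgeR adjusted p = 0.567). Without PELP1 FBKO 2 it was -0.05, and without PELP1 FBKO 1 it was -0.36. Markers of excitatory neurons summed to 6780 and 6990 CPM for FLOXED against 7510 and 5510 for PELP1 FBKO, with the lowest sum in the library where Grik5 was lowest. The sum was highest in PELP1 FBKO 1, where Grik5 was below both FLOXED libraries. Camk2a made up most of this sum (3560 and 3930 CPM for FLOXED against 4610 and 3380 for PELP1 FBKO). Of the 6 markers 1, Camk2a, was positive and 5 were negative. None was at 0 and 0 passed the threshold, and the part of these markers in the Grik5 values was not tested.

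The auxiliary subunit genes differed little. Neto1, whose protein also associates with NMDA receptors, was at 108 and 100 CPM for FLOXED 1 and FLOXED 2, against 119 and 114 for PELP1 FBKO 1 and PELP1 FBKO 2. Both knockout libraries were above both FLOXED libraries by a small margin (log2 fold change 0.16, SE 0.125, 95% interval -0.13 to 0.45, edgeR adjusted p = 0.573). It was 0.03 with offsets for transcript length and GC content, and 0.10 without FLOXED 2. Neto2 was at 57.1 and 63.6 CPM for FLOXED 1 and FLOXED 2, against 57.6 and 56.3 for PELP1 FBKO 1 and PELP1 FBKO 2. FLOXED 2 lay above the other libraries, which were close together (log2 fold change -0.08, SE 0.129, edgeR adjusted p = 0.801). Its log2 fold change was -0.16 without FLOXED 1, -0.02 without FLOXED 2 and -0.17 with the offsets. The intervals, 0.915-fold to 1.37-fold for Neto1 and 0.768-fold to 1.16-fold for Neto2, do not reach a 1.5-fold difference in either direction.

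**Figure D2:**
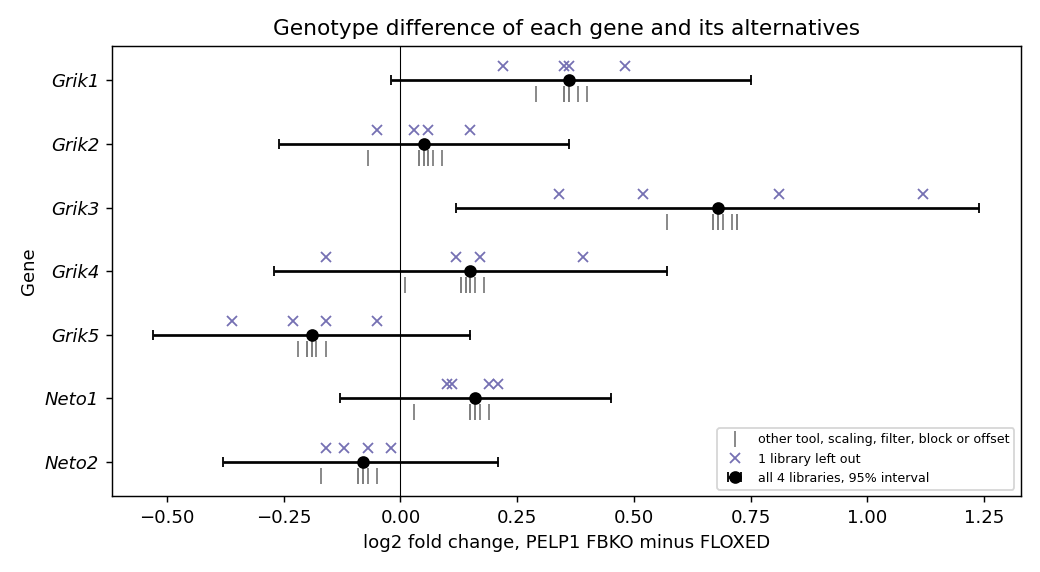
Log2 fold change of each gene, PELP1 FBKO minus FLOXED, over all 4 libraries with its 95% interval (black), with 1 library left out (crosses) and under other tools, scalings, filters, blocks or offsets (ticks). The values of Grik3 run from 0.34 to 1.12, and those of Grik4 from -0.16 to 0.39.

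Levels of different genes were compared per kilobase of the longest annotated transcript, as TMM-scaled RPKM. Grik5 was highest, with a mean of 57.1 RPKM over the 4 libraries (48 to 62.2), followed by Neto1 at 13.2 (12 to 14.3) and Neto2 at 10.5 (10 to 11.3). Grik4 came next at 9.94 (8.57 to 12.3), then Grik2 at 6.67 (6.06 to 7.03), Grik3 at 5.63 (3.17 to 7.59) and Grik1 at 5.33 (4.66 to 6.58). Ranges of neighbors did not overlap between Grik5 and Neto1, between Neto1 and Neto2, or between Grik4 and Grik2, whereas Neto2 overlapped with Grik4, Grik2 with Grik3, and Grik3 with Grik1. With exon-union lengths Neto2 (9.57) and Grik4 (9.81) changed places, and so did Grik2 (4.74) and Grik3 (5.63), while Grik1 remained lowest (2.9). The gene models that the authors counted are not given in the sources used here, and a counted model shorter than the annotated transcript would lower a per-kilobase level.

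**Figure D3:**
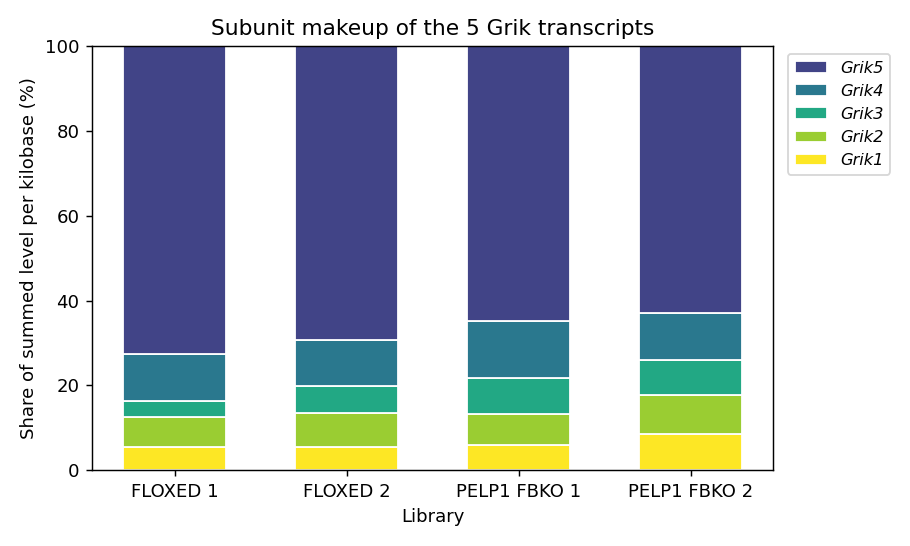
Share of each Grik gene in the summed level per kilobase of all 5 (percent), as stacked bars with 1 bar per library. Grik5 takes 72.6% and 69.3% in FLOXED and 64.7% and 62.9% in PELP1 FBKO, and the share of Grik3 is smallest in FLOXED 1 (3.7%).

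The summed level of the 5 subunit genes overlapped between genotypes, whereas the share of Grik5 in it did not. The sum was 85.6 and 86.1 RPKM in FLOXED and 90.6 and 76.3 RPKM in PELP1 FBKO, so that the knockout libraries enclosed the FLOXED pair. Within it Grik5 took 71.0% ± 2.34 for FLOXED and 63.8% ± 1.29 for PELP1 FBKO (SD, n = 2 each). The low-affinity genes Grik1 to Grik3 together took 16.2% and 19.9% in FLOXED and 21.7% and 25.9% in PELP1 FBKO. Their share was thus 5.73 percentage points higher in the knockout, with no overlap, but FLOXED 2 and PELP1 FBKO 1 were closer to each other than either was to its own replicate. The difference in share was 3.87 points without FLOXED 1 and 3.62 points without PELP1 FBKO 2. It reached 7.59 points without FLOXED 2 and 7.84 points without PELP1 FBKO 1. The ratio of Grik5 to Grik4 was 6.5 and 6.43 in FLOXED and 4.75 and 5.6 in PELP1 FBKO. Neto1 made up 56% and 51.5% of the summed Neto level in FLOXED and 58.1% and 57.7% in PELP1 FBKO. With 2 libraries against 2, an exact permutation test of such shares cannot go below p = 0.333, so they were not tested.

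Set against the other ionotropic glutamate receptors, the kainate receptor genes made up between 16.4% and 19.2% of the summed subunit level. Their share of the summed level of 18 subunit genes per kilobase was 19.2% and 16.4% in FLOXED and 16.6% and 17.2% in PELP1 FBKO. AMPA receptor genes took between 62.5% and 65.6%, and NMDA receptor genes between 15.5% and 16.9%. The NMDA share depended on the length used. With exon-union lengths it was between 11.2% and 12.2%, and the kainate share was between 17.3% and 20.0%. Grin2a and Grin2b, named after their values were seen, had means of 0.747 and 1.14 RPKM over the 4 libraries. Grin1 had 60.7 and Grin2c 11.6. A counted model shorter than the annotated transcript would lower such a level and the NMDA share, and raise the kainate share. Whether this was so was not tested. The genotypes overlapped in the kainate, AMPA and NMDA shares under both lengths.

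Genes whose pattern over the 4 libraries was most like that of each member were taken among genes of similar abundance, by the root mean square distance of centered log2 CPM. For Grik3 they were Hivep1 and Lrp4, at distances of 0.0511 and 0.0613 among 4763 candidates. Hivep1, a zinc finger gene, was at 20.9 and 33.3 CPM for FLOXED against 48.4 and 38.1 for PELP1 FBKO, with FLOXED 1 lowest and PELP1 FBKO 1 highest as for Grik3. For Grik4 they were the potassium channel gene Kcnj11 (0.0527) and Sidt1 (0.0559), both highest in PELP1 FBKO 1. Grik5 was closest to Sgsm2 (0.00488) and the kinesin light chain gene Klc2 (0.00996), both lowest in PELP1 FBKO 2. The nearest genes were Triobp (0.0151) and Ikbip (0.0242) for Grik1, and Kdm5c (0.00793) and Fam65b (0.00829) for Grik2. They were Ctsf (0.0120) and Rbmx (0.0140) for Neto1, and Nvl (0.00651) and Taok3 (0.0105) for Neto2. Among the members themselves Grik2 and Neto2 were the closest pair (0.0793) and Grik3 and Grik5 the most distant (0.552). The distances were not scaled to the spread of each gene, so genes that vary little, such as Grik2 and Neto2, lie close together. With 4 libraries such distances describe these samples only.

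Genes that scaffold, transport, modify or recruit kainate receptors showed no common direction. Of 26 partner genes listed 25 were in the tables and were tested. Of these 0 passed the edgeR threshold, 15 had a positive and 10 a negative log2 fold change, and the median was 0.06. At an unadjusted p under 0.05 there were 2 higher and 0 lower, against 10.1% and 5.55% of all genes. Without overlap between genotypes 4 were higher and 6 lower, against 25.4% and 23% of all genes. Grip2, a PDZ scaffold gene, was at 9.58 and 10.6 CPM for FLOXED against 15.6 and 13.3 for PELP1 FBKO (log2 fold change 0.52, SE 0.181, edgeR adjusted p = 0.231). Prkcd, a protein kinase C gene, was at 25.5 and 20.4 against 26.8 and 41.7 CPM (0.58, SE 0.229, edgeR adjusted p = 0.280), and it passed the threshold without PELP1 FBKO 1 (log2 fold change 0.84, adjusted p = 0.0293), where 3.67% of all genes passed. The cadherin gene Cdh2 was at 72.3 and 89.2 against 98.2 and 90.9 CPM (0.23, SE 0.145).

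Among the RNA editing enzymes, the enzyme of the Q/R site overlapped between genotypes. Adarb1 was at 169 and 213 CPM for FLOXED against 220 and 187 for PELP1 FBKO, and Adar was at 175 and 202 against 199 and 181 CPM, with overlap in both genes. Adarb2, a family member with no known editing activity, was at 14.4 and 13.3 CPM for FLOXED against 25.6 and 19.1 for PELP1 FBKO. It was thus higher without overlap, as were 25.4% of all genes. Its log2 fold change was 0.69 (SE 0.190, edgeR adjusted p = 0.149), and 0.89 without PELP1 FBKO 2.

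**Figure D4:**
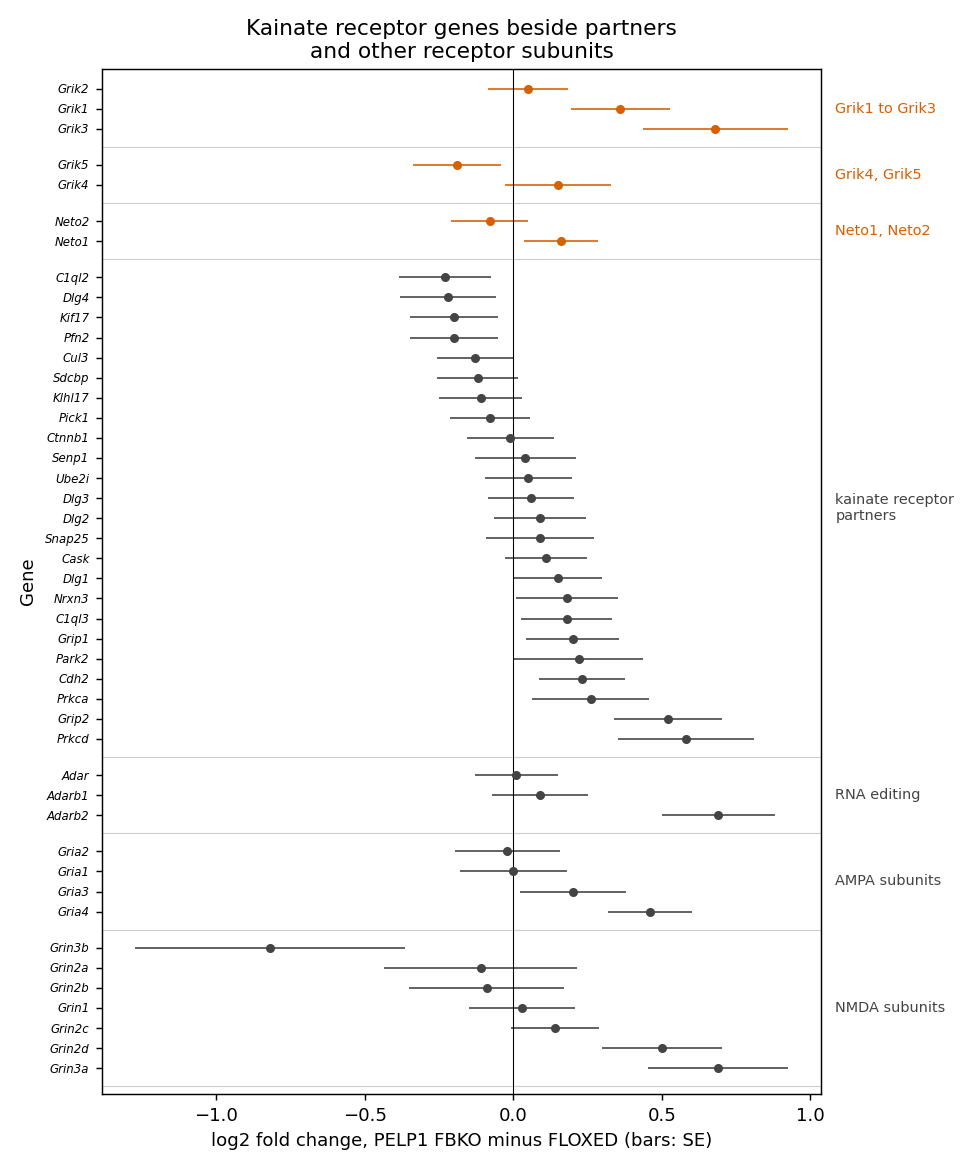
Log2 fold change, PELP1 FBKO minus FLOXED, with its SE over all 4 libraries, for the 7 kainate receptor and Neto genes (orange) and 38 of the 41 related genes, from the partner, editing, AMPA and NMDA receptor lists (grey), sorted within each list. Grik3 at 0.68 lies beside Grin3a and Adarb2, both at 0.69, and 0 of these genes passed the adjusted threshold.

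In the other receptor families some subunit genes lay on the same side as Grik3. Grin3a, an NMDA receptor subunit gene, was at 9.3 and 14.5 CPM for FLOXED 1 and FLOXED 2, against 21.1 and 17.3 for PELP1 FBKO 1 and PELP1 FBKO 2, the same order of libraries as Grik3. Its log2 fold change was 0.69 (SE 0.236, edgeR adjusted p = 0.225). The log2 fold change of Grin3a was 1.04 without FLOXED 2 and 0.82 without PELP1 FBKO 2, omissions that also raised that of Grik3. Grin2d had 0.50 (SE 0.203), and the AMPA receptor gene Gria4 had 0.46 (SE 0.140, edgeR adjusted p = 0.179), whereas Gria3 had 0.20 (SE 0.179). Grin3b, named after its values were seen as the widest difference of the NMDA receptor list, lay on the other side, with 20 and 19 reads for FLOXED against 10 and 14 for PELP1 FBKO (-0.82, SE 0.455, edgeR adjusted p = 0.430). In both the 4 AMPA and the 7 NMDA receptor genes 0 passed the edgeR threshold, and the medians were 0.10 and 0.03. No test of the difference between these families and the kainate receptor genes was made.

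Marker lists of other cells and regions differed between the same libraries, and their part in the member values was not tested. The 8 CA1 markers all had negative log2 fold changes (median -0.74). Of these 0 passed the edgeR threshold, and DESeq2 called 6, against 3.04% of all genes. The 6 genes of the hippocampus list summed to 2940 and 2760 CPM for FLOXED against 2230 and 1690 for PELP1 FBKO. Hpca made up most of this sum (2410 and 2260 CPM for FLOXED against 1780 and 1340 for PELP1 FBKO). In that list 2 genes had a positive log2 fold change, Prox1 (0.93) and Zbtb20 (0.18), and 4 had a negative one. Oligodendrocyte markers, 8 genes with none at 0, summed to 2900 and 3700 CPM for FLOXED against 5800 and 6220 for PELP1 FBKO. Again 0 of these passed the edgeR threshold, and DESeq2 called 8. Astrocyte markers summed to 5860 and 6680 against 7500 and 9400 CPM, and microglial markers to 231 and 238 against 329 and 373 CPM. Of the astrocyte genes 5 were higher without overlap. Gfap, at 2380 and 2260 against 1500 and 3880 CPM, overlapped between genotypes, as did Aqp4 and Aldh1l1. Thalamic and septal genes summed to 20.6 and 26.3 against 38.3 and 59.7 CPM, striatal genes to 60.1 and 56.1 against 87.6 and 79 CPM, meningeal genes to 86.5 and 91.7 against 86.1 and 117 CPM, and choroid plexus genes to 347 and 96.1 against 48.8 and 56.6 CPM. Ttr made up most of the choroid plexus sum in FLOXED (324 and 67.5 against 21.4 and 33.9 CPM), and the other 4 genes of that list overlapped between genotypes. Ppp1r1b made up most of the striatal sum (50.4 and 45.2 CPM for FLOXED against 77.7 and 66.1 for PELP1 FBKO). Of the other striatal genes Drd2 was also higher without overlap, whereas Drd1a and Adora2a overlapped between genotypes. All 4 thalamic and septal genes were higher without overlap, among them Zic1 (3.48 and 4.84 against 10.3 and 30 CPM). Dcn made up most of the meningeal sum and overlapped between genotypes (69.2 and 72.6 against 57 and 83.8 CPM). Markers of neurons in general, 5 genes, summed to 2480 CPM in each FLOXED library and to 2820 and 2480 CPM in PELP1 FBKO. None of the listed markers found in the tables was at 0 in all 4 libraries.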

How the data were processed

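The 4 hippocampal RNA-seq libraries, 2 per genotype, were grouped by the genotype label. The values deposited by the authors are whole, unnormalized counts of reads for each gene symbol. Per the submitters' processing notes, the tools were CASAVA 1.8.2, TopHat2 2.0.8b and HTSeq, with mm9 as the genome. A human build stands in the series description, but the gene symbols are those of mouse. Reads of repeat runs were merged, per the series text. Strand setting and gene annotation are not given in the sources used here. HTSeq's summary lines stayed out of library sizes, and reads in no gene made up between 14.7% and 15.7% of uniquely placed reads.

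The main test was the quasi-likelihood F test of edgeR 4.0.16 (R 4.3.3, limma 3.58.1, DESeq2 1.42.0) with TMM, filterByExpr and genotype as the term, over 14978 genes, with Benjamini-Hochberg adjustment at 0.05. It was tested on simulated data. Alternatives were other scalings, count filters and tools, length and GC offsets, a replicate block, other gene lengths and leaving out each library. Standard errors came from the F statistic, and log2 CPM used a prior count of 1. Replicates differed beyond sampling noise, with chi-square per degree of freedom of 23.3 and 17.4, and were counted separately.

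Lengths and GC content came from GENCODE vM21 (GRCm38) for 98.9% of tested genes. As its build is not that of the files, no coordinates are given. No protein sequences were used here. The members and lists were chosen with earlier results of these data known. Named beside the 7 members were Pelp1, up to 4 genes of each related list by p (2 for AMPA and NMDA genes) and the 2 nearest genes of each member with a mean log2 CPM within 1 of its own. Some genes that this rule names are not reported here.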

Additional observations from a re-analysis of the deposited data

How the results depend on the processing

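Over 14 alternatives, 93 of 98 member values kept their direction and their side of the threshold. The direction reversed for Grik2 with length and GC offsets (-0.07) and without FLOXED 1 (-0.05, in a range of -0.05 to 0.15 with 1 library left out), and for Grik4 without PELP1 FBKO 1 (-0.16, in such a range of -0.16 to 0.39), and Grik3 was called in 2 alternatives. The cause was not tested. Over all genes the count past the threshold was 0 and stayed at 0 with limma-voom. It was 17 with RLE size factors, 42 with upper-quartile factors, 359 without a count filter, 43 with at least 50 reads in every library, 446 with DESeq2, 759 with the exact test and 400 with length and GC offsets. With 1 library left out it ran from 0 to 598, that of the 7 members from 0 to 1, that of the 41 related genes from 0 to 2, and the difference in low-affinity share from 3.62 to 7.84 points. The lone library of a genotype is then assumed to vary like the other pair. The labels give replicate numbers but no pairing between genotypes. Deviations of replicate 1 had a correlation of -0.113 over genes, which with so few libraries cannot settle whether they were paired. With the replicate number as a block the count was 566, with 0 members (Grik3 adjusted p = 0.0514 in edgeR), and with the crossed pairing, added after seeing the data, it was 314, with 0 members. The 2 libraries per genotype limit what could be detected.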
